A study of Mus musculus with 33 samples.

Results

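The 8 genes described here were listed as genes of the formative and primed states of the epiblast, the pluripotent tissue of the early embryo. They are *Fgf5*, *Otx2*, *Pou3f1*, *Zic2*, *Zic5*, *Sall2*, *Grhl2* and *Foxd3*, and all 8 are among the 16336 genes in the deposited table. They were chosen by name with earlier results of these data known. The shares of all genes given beside their counts are therefore descriptions and not tests of the set. Poly-A RNA was sequenced from E14Tg2a, a wild-type mouse ES cell line of strain 129/Ola, and from its derivatives ΔK9.1 and ΔK9.2, in which CRISPR had removed, on both alleles, the H3K9me3-marked region upstream of *Nanog*. Each line was collected undifferentiated in serum with LIF (day 0) and after 4, 6 and 8 days of embryoid body (EB) differentiation, in which aggregates were kept without LIF and replated after day 4. There were 33 libraries in 12 groups, with 3 replicates per line and day except on day 6, where each line had replicates 2 and 3. Each deletion line is 1 clone and E14Tg2a is a single parental line, so a difference between lines cannot be told apart from a difference between clones. The methods describe independent assays with the lines differentiated side by side, and no source used here ties a replicate number to an assay.

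When ES cells leave the naïve state they pass through a formative phase, in which naïve genes are silenced and the cells become able to respond to lineage signals, before they reach the primed state of the late epiblast. FGF5, OTX2 and POU3F1 (OCT6) are widely used marks of this transition, and OTX2 and POU3F1 are transcription factors that act at epiblast enhancers. The epiblast genes are switched off again, or kept only in some derivatives such as neural tissue, once the germ layers form.

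Levels are in TPM (a level per transcript length, scaled to the same total in each library), and the listed TPM summed to between 994284 and 998266 per library, with 12903 to 13905 genes at 1 TPM or more. The read depth behind each value cannot be read from TPM. Differences are log2 fold changes of TPM + 1 from limma with standard errors (SE) and Benjamini-Hochberg adjusted p-values over all 16336 genes, a scale that understates changes of low genes. A gene was called at an adjusted p under 0.05 with a log2 fold change beyond 1 between days or 0.3 between lines. The markers of the labelled cells were present on day 0, with *Nanog* at 326 to 368 TPM in E14Tg2a and 412 to 486 TPM in the clones and *Pou5f1* between 1264 and 2050 TPM in the 9 libraries. On day 0, E14Tg2a replicate 1 stood apart with 116 TPM summed over 10 extra-embryonic endoderm markers, against 8.95 and 13.3 TPM in the other E14Tg2a libraries, and it also had the highest level of each of the 8 members in the line on that day. On day 6, ΔK9.1 replicate 3 had 108 TPM summed over 9 primitive streak markers, against 566 to 736 TPM in the other 3 clone libraries.

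The members are scattered over 4 chromosomes of mm10. *Fgf5* (chr5:98254184-98277030, + strand), *Foxd3* (chr4:99656299-99658622, + strand), *Pou3f1* (chr4:124656807-124660655, + strand) and *Grhl2* (chr15:37233036-37363569, + strand) lie apart from each other. Chromosome 14 holds the other 4, *Otx2* (chr14:48657677-48673819, - strand), *Sall2* (chr14:52311172-52328762, - strand), *Zic5* (chr14:122456795-122465677, - strand) and *Zic2* (chr14:122475435-122479852, + strand). *Zic2* and *Zic5* face away from each other with 9757 bases between them. RefSeq promoter windows of GRCm38.p6 (the mm10 assembly), each 250 bases before to 50 bases after a transcription start, were listed for *Fgf5*, *Otx2*, *Zic5*, *Sall2* and *Foxd3*. The windows of *Fgf5*, *Zic5*, *Foxd3* and *Sall2*, the listed members called between the clones and E14Tg2a on a day, are shown 5′ to 3′ on the gene's strand with every CG dinucleotide in capitals.
Fgf5 (chr5:98253934-98254233, + strand): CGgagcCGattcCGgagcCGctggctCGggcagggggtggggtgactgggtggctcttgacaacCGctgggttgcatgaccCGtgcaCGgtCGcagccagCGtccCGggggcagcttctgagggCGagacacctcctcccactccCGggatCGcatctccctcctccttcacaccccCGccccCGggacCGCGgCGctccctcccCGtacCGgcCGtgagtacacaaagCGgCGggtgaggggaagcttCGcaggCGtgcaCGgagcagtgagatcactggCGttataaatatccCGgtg
Zic5 (chr14:122465609-122465908, - strand): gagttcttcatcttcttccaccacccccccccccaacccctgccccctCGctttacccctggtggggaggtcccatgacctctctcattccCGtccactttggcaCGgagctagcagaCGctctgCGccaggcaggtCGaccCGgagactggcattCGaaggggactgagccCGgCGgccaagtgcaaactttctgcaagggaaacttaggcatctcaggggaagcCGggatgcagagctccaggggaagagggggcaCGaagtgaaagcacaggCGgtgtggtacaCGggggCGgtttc
Foxd3 (chr4:99656049-99656348, + strand): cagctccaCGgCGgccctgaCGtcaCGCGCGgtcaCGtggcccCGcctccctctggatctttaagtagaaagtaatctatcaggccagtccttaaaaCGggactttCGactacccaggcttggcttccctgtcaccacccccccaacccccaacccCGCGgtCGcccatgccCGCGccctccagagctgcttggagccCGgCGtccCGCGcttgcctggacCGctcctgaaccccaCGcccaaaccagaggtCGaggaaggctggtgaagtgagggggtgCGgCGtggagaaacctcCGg
Sall2 outer start (chr14:52328621-52328920, - strand): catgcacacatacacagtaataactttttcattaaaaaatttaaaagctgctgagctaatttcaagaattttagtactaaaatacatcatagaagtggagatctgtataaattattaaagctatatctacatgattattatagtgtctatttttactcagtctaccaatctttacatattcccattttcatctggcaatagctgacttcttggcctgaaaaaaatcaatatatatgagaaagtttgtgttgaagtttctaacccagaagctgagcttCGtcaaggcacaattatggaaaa
Sall2 inner start (chr14:52316274-52316573, - strand): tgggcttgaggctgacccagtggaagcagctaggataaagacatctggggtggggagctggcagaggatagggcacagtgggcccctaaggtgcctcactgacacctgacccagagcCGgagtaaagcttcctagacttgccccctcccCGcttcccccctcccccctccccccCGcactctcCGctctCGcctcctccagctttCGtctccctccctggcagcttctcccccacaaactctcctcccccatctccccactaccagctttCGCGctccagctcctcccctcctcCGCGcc
The *Fgf5* window holds 29 CG dinucleotides, a number that 12.9% of the 32851 windows in the table reach. The *Foxd3* window holds 25 (18.4% of windows) and the *Zic5* window 15 (34.6%), against a median of 7. *Sall2* differs between its starts, with 1 at the outer start, where 94.6% of windows hold at least as many, and 10 at the inner start (43.5%). The 4 windows of *Otx2*, which was not called between the lines, hold 6, 8, 16 and 11. The GC content of these windows was 68.3% for *Fgf5*, 65.7% for *Foxd3*, 62.7% for *Zic5* and 30.3% and 65% for *Sall2*. On both strands of the members' 9 windows, TAATCC (the core bound by OTX proteins), the octamer ATGCAAAT bound by POU factors and CCTGCTG (a ZIC-type core), none of which contains another, were searched for. They occur in 7.06%, 1.74% and 10.5% of all windows. The members held 1 match, a TAATCC on the opposite strand of the third *Otx2* start, 211 bases upstream, which describes letters in a window and not a bound site.

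In E14Tg2a most of the epiblast genes rose by day 4 and fell after day 6. Of the 8 members, 6 were called higher on day 4 than on day 0, where 3.67% of all genes were called higher, and their median log2 fold change was 2.84 against -0.07 over all genes. Between days 6 and 8, 6 of 8 were called lower, where 2.73% of all genes were, with a median of -2.27 against 0.05. The others were *Sall2*, called in the first step alone, *Foxd3*, called in the second alone, and *Grhl2*, called in neither. In bulk RNA a larger share of cells that express a gene and more RNA per cell cannot be told apart.

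*Fgf5*, a secreted growth factor and the classic mark of the post-implantation epiblast, had the largest gain by day 4 on the log2 scale. It was at 1.36, 0.21 and 0.02 TPM in the day 0 libraries of E14Tg2a and at 29.9, 42.6 and 38.0 TPM on day 4. The gain was 4.71 (SE 0.65, adjusted p = 9.41e-06). On day 6 the libraries read 29.2 and 54.8 TPM, and on day 8 5.81, 0.39 and 1.52 TPM, so that no day 8 library came within the range of days 4 and 6. The drop from day 6 to day 8 was -3.84 (SE 0.73, adjusted p = 0.00055). The mean was highest on day 6, at 42.0 ± 18.0 TPM (SD, n = 2), and its difference from day 4, 36.8 ± 6.44 TPM (SD, n = 3), was within the spread (0.13, adjusted p = 0.92).

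*Otx2*, a homeodomain factor that promotes the exit from the naïve state, had the highest mean TPM of the members in E14Tg2a on days 0 and 4. It was already on in undifferentiated cells, at 25.3, 16.3 and 13.4 TPM, and reached 158, 131 and 141 TPM on day 4 (2.94, SE 0.43, adjusted p = 1.96e-05). On day 6 its libraries read 45.9 and 76.3 TPM, and on day 8 14.1, 5.12 and 13.6 TPM, which overlaps with day 0. The difference between days 4 and 6 was -1.25 and missed the threshold (adjusted p = 0.060), which it passed with the libraries of both days fitted alone (adjusted p = 0.034), and the fall from day 6 to day 8 passed it (-2.45, SE 0.49, adjusted p = 0.00078). *Pou3f1*, the POU-domain factor OCT6, followed *Otx2* at a lower level. Its day 0 libraries were at 9.23, 2.92 and 2.77 TPM, those of day 4 at 40.1, 41.0 and 37.7 TPM, those of day 6 at 12.02 and 20.8 TPM and those of day 8 at 5.49, 1.78 and 3.59 TPM. The gain to day 4 was 2.93 (SE 0.47, adjusted p = 5.67e-05). The difference from day 4 to day 6 (-1.27, adjusted p = 0.081) likewise passed with both days fitted alone (adjusted p = 0.034), and the loss after day 6 was -1.95 (SE 0.53, adjusted p = 0.0085), a call that was lost without day 6 replicate 3 or day 8 replicate 2.

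The zinc finger factors *Zic2* and *Zic5*, both known from neural development and from epiblast cells, rose together but to different extents. *Zic2* went from 8.67, 8.09 and 8.08 TPM on day 0 to 48.4, 74.5 and 64.2 TPM on day 4 (2.75, SE 0.40, adjusted p = 1.78e-05), stayed at 64.3 and 79.0 TPM on day 6 and fell to 12.7, 5.18 and 7.83 TPM on day 8 (-2.99, SE 0.45, adjusted p = 6.31e-05). *Zic5* began higher, at 11.6, 9.83 and 10.7 TPM, and gained less, with 31.7, 36.2 and 38.6 TPM on day 4 (1.64, SE 0.37, adjusted p = 0.0020). It ended below its starting level, at 4.48, 3.66 and 5.99 TPM on day 8, a net change of -1.05 (SE 0.37, adjusted p = 0.018) whose call was lost without day 0 replicate 1 or day 8 replicate 2.

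*Sall2*, a zinc finger factor of the spalt family, was switched on and stayed on. It rose from 2.08, 1.67 and 1.84 TPM to 12.7, 36.4 and 30.9 TPM on day 4 (3.15, SE 0.33, adjusted p = 1.66e-07), and 19.5 and 19.7 TPM were measured on day 6 and 11.3, 20.5 and 14.1 TPM on day 8. All day 8 libraries lay above all day 0 libraries, and the net change over 8 days was 2.47 (SE 0.33, adjusted p = 5.14e-07), the only called gain among the members over that interval, in which 15.9% of all genes were called higher. *Grhl2*, an epithelial regulator, was called in none of these steps. Its libraries spread widely on day 0 (11.4, 4.11 and 3.69 TPM) and overlapped with those of day 4 (16.3, 12.8 and 8.31 TPM), and its difference of 0.97 had an adjusted p of 0.034 but stayed under the fold threshold. On day 6 it was at 6.28 and 6.30 TPM and on day 8 at 5.51, 2.21 and 2.39 TPM, all below every day 4 library, and its mean of 3.37 TPM on day 8 was 27% of that of day 4. The differences from day 4 to day 6 (-0.84, adjusted p = 0.10) and from day 6 to day 8 (-0.82, adjusted p = 0.11) had unadjusted p of 0.034 and 0.039.

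*Foxd3*, a forkhead factor needed in pluripotent cells and later in the neural crest, took another course. It was as high in undifferentiated cells, at 15.9, 9.84 and 14.3 TPM, as on day 4, at 12.4, 19.2 and 14.3 TPM (0.19, adjusted p = 0.79). It then fell to 3.65 and 9.21 TPM on day 6, the only member called between days 4 and 6, where 9.33% of all genes were called, with a change of -1.22 close to the threshold (SE 0.45, adjusted p = 0.048). That call was lost without any of 22 of the 33 libraries in turn, with a change of -0.65 without day 6 replicate 2. A pseudocount of 0.1 and a fit of the libraries of both days alone each lost the call too. By day 8 *Foxd3* was at 0.87, 0.20 and 0.33 TPM, a net change of -3.29 (SE 0.40, adjusted p = 1.45e-07), and 11% of all genes were called lower over that interval, *Zic5* and *Foxd3* among them.

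**Figure D1:**
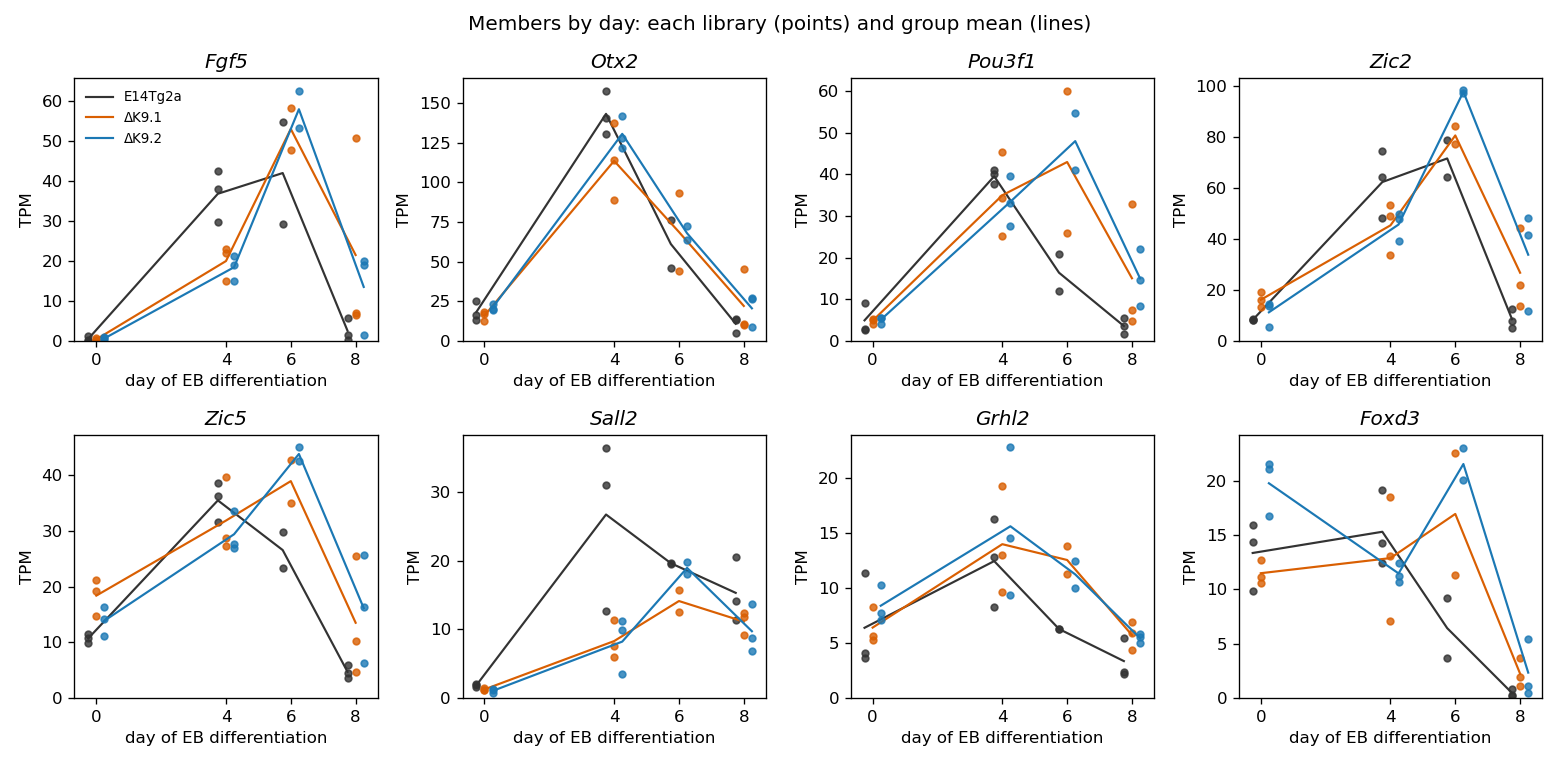
Level of each member in TPM (vertical axis, linear, from 0) against the day of EB differentiation, with a point for each of the 33 libraries and lines through the group means of E14Tg2a, ΔK9.1 and ΔK9.2, shifted sideways for legibility. E14Tg2a is highest on day 4 for 6 of the 8 members, and 1 ΔK9.1 library stands high on day 8, with 50.8 TPM of *Fgf5*.

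Most members also rose by day 4 in the clones. In ΔK9.1, 5 of 8 members were called higher on day 4 than on day 0 (1.37% of all genes) with log2 fold changes from 1.42 for *Zic2* to 3.87 for *Fgf5*. In ΔK9.2, 6 of 8 were (2.53% of all genes), from 1.04 for *Zic5* to 3.57 for *Fgf5*, and the *Zic5* call was lost without any of 5 libraries in turn. The median of all genes was itself below 0 in these contrasts, at -0.21 in ΔK9.1 and -0.16 in ΔK9.2, so the gains relative to it are larger by that much. *Zic5* missed the threshold in ΔK9.1 (0.76, adjusted p = 0.13). *Foxd3* moved by 0.07 in ΔK9.1 (adjusted p = 0.94) and -0.73 in ΔK9.2 (adjusted p = 0.17), and *Grhl2* by 0.99 and 0.76 (adjusted p = 0.028 and 0.086).

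The day of the highest mean differed between E14Tg2a and the clones for 4 of the 8 members. In E14Tg2a it was day 4 for 6 members and day 6 for *Fgf5* and *Zic2*. In both clones it was day 4 for *Otx2* and *Grhl2* and day 6 for the other 6, so that *Pou3f1*, *Zic5*, *Sall2* and *Foxd3* were the members whose peak day was not that of E14Tg2a. Over all genes the mean was highest on day 4 for 13.8%, 9.54% and 13.2% of genes in E14Tg2a, ΔK9.1 and ΔK9.2, and on day 6 for 16.1%, 13% and 16.9%. The share of all genes whose peak day differed between the lines was not counted. On day 0 *Foxd3* was at 87.2%, 67.8% and 91.8% of its peak in E14Tg2a, ΔK9.1 and ΔK9.2. Peak days rest on means of 2 libraries on day 6, and in ΔK9.1 without day 6 replicate 3 the number of members highest on day 4 was 4, and without day 4 replicate 1 it was 1. It stayed at 2 without any of the 11 libraries of ΔK9.2 in turn.

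The step behind these peaks, from day 4 to day 6, passed the test for 1 member in E14Tg2a, 1 in ΔK9.2 and none in ΔK9.1, and 4 in E14Tg2a, all lower, and 3 in ΔK9.2, all higher, had an unadjusted p under 0.05. At that unadjusted p, 2505 of all 16336 genes were lower in E14Tg2a and 4017 higher in ΔK9.2 (6028 and 6803 in either direction). As a share of its own peak, *Fgf5* was at 87.7% on day 4 in E14Tg2a, at 37.7% in ΔK9.1 and at 31.8% in ΔK9.2. In the same order *Zic2* was at 87.1%, 56.3% and 46.7%, whereas *Otx2* was at 100% in every line. In ΔK9.2 the median change of the members was 0.71, and *Sall2* passed the threshold (1.24, adjusted p = 0.013, where 9.9% of all genes were called). That call was lost without day 4 replicate 1 (0.79, adjusted p = 0.10), without either day 6 library (adjusted p = 0.091 and 0.062) and with the libraries of both days fitted alone (adjusted p = 0.12). In that fit *Fgf5* (1.61) and *Zic2* (1.09) were called instead (adjusted p = 0.013 and 0.014, against 0.096 and 0.068 with all libraries). In ΔK9.1 none of the 8 was called by limma, at a background of 5.36%, and none had an unadjusted p under 0.05, where 5326 of all 16336 genes did.

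The test of the difference itself compares the change of both clones with that of E14Tg2a. From day 4 to day 6 the difference was above 0 for all 8 members, with a median of 1.06 against 0.03 over all genes, and was largest for *Foxd3* (1.84), *Pou3f1* (1.63) and *Fgf5* (1.36). None was called by limma, where 0.104% of all genes were, and 3 had an unadjusted p under 0.05, *Foxd3*, *Pou3f1* and *Sall2*, with adjusted p from 0.34 to 0.58. Of all 16336 genes, 1113 had an unadjusted p under 0.05. From day 0 to day 4 the differences ran from -0.10 for *Grhl2* to -1.12 for *Sall2*, with a median of -0.63 against -0.13 over all genes, none was called (0.0184% of all genes) and 2 had an unadjusted p under 0.05, as 1421 of all 16336 genes did. None was called from day 6 to day 8 (0.392% of all genes, 1 unadjusted) or from day 0 to day 8 (6.29%, 2 unadjusted). Over the same intervals 1704 and 3624 of all 16336 genes had an unadjusted p under 0.05. These contrasts share libraries with the comparisons within each line.

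**Figure D2:**
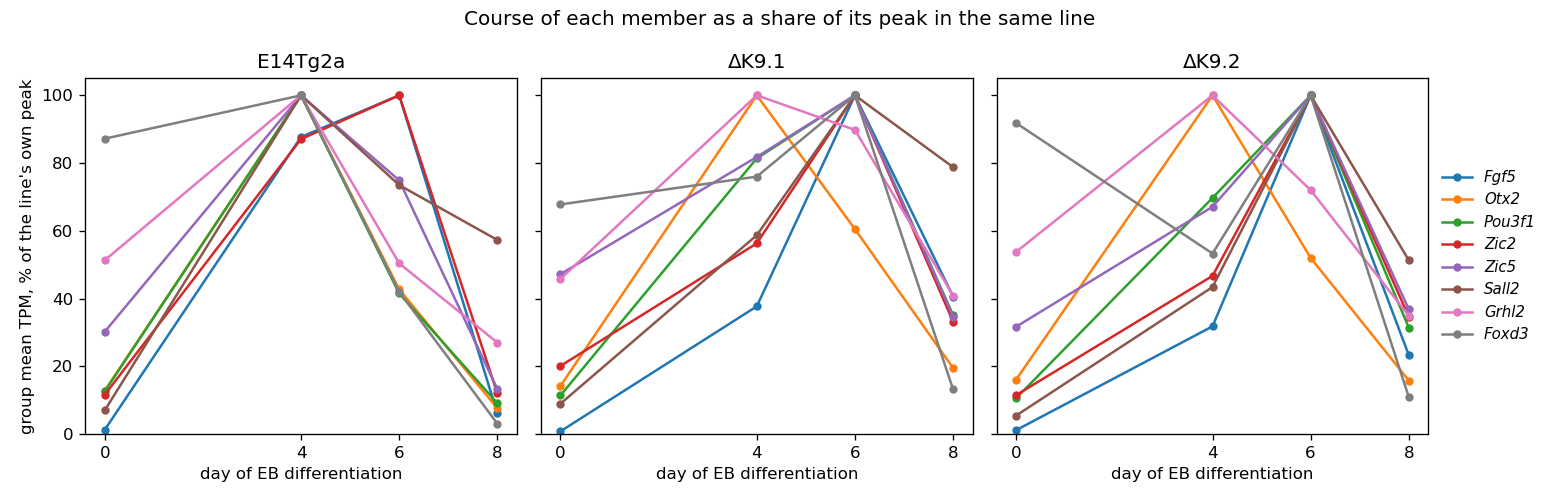
Group mean TPM of each member as a percentage of its highest group mean in the same line (vertical axis) against the day of EB differentiation, 1 panel per line. *Fgf5* and *Zic2* are at 87.7% and 87.1% of their peak on day 4 in E14Tg2a and between 31.8% and 56.3% in the clones.

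After day 6 most members declined in the clones too. In ΔK9.1, 5 of 8 were called lower on day 8 than on day 6 (1.7% of all genes), from -1.71 for *Zic2* to -2.47 for *Foxd3*, and all 5 calls (*Foxd3*, *Otx2*, *Pou3f1*, *Zic2* and *Zic5*) were lost without replicate 3 of day 6, and all but *Foxd3* without replicate 2 of day 8. In ΔK9.2, 6 of 8 were called lower (1.53% of all genes), from -1.58 for *Zic5* to -3.05 for *Foxd3*, and all but *Foxd3* lost the call when either day 6 library or day 8 replicate 2 was left out, with *Fgf5* moving from -2.52 to -1.52 and *Zic2* from -1.73 to -1.11 without the latter. With the libraries of the compared days fitted alone, all of these calls after day 6 in the clones were lost, and in E14Tg2a those of *Fgf5*, *Otx2* and *Pou3f1*. Levels on day 8 were then set against those of day 0. In ΔK9.1 *Fgf5* (3.38) and *Sall2* (2.41) were called higher on day 8 than on day 0, where 10.9% of all genes were, and in ΔK9.2 *Fgf5* (2.67), *Sall2* (2.36), *Zic2* (1.39) and *Pou3f1* (1.31) were, where 11% were. Without day 0 or day 8 replicate 1 of ΔK9.2 the calls of *Zic2* (0.97 and 1.03) and *Pou3f1* (1.20 and 1.28) were lost, that of *Pou3f1* also without day 8 replicate 3 (0.995, adjusted p = 0.12), and that of *Zic2* with both days fitted alone (adjusted p = 0.11). *Foxd3* was called lower in both, by -2.02 and -2.93, at backgrounds of 10% and 11.3%.

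The clones were then compared with E14Tg2a on each day. In undifferentiated cells no member was called by limma and none had an unadjusted p under 0.05 for the mean of both clones, where 3.89% of all genes were called in either direction. Of all 16336 genes, 2871 had an unadjusted p under 0.05. The differences ran from -0.42 for *Sall2* to 0.59 for *Zic2*. *Sall2* was the member whose day 0 libraries did not overlap, at 1.67 to 2.08 TPM in E14Tg2a and 0.68 to 1.43 TPM in the clones, which 2.75% of all genes did in the lower direction.

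On day 4, 1 member was called. *Sall2* was lower in both clones, at 7.63, 11.3 and 5.95 TPM in the ΔK9.1 libraries and 3.56, 9.89 and 11.2 TPM in ΔK9.2, against 12.7, 36.4 and 30.9 TPM in E14Tg2a. Every clone library lay below every E14Tg2a library, and the difference was -1.54 for the mean of both clones (SE 0.28, adjusted p = 0.0032), where 2.36% of all genes were called lower. It was called in each clone, at -1.49 in ΔK9.1 (adjusted p = 0.013, 2.51% of genes) and -1.59 in ΔK9.2 (adjusted p = 0.029, 0.306%). Without E14Tg2a replicate 3 of that day the mean difference had an adjusted p of 0.055. The ΔK9.1 call was lost without any of 3 libraries (adjusted p up to 0.097), and the ΔK9.2 call without any of 4 (up to 0.20) and under median-ratio rescaling.

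*Fgf5* separated the lines on day 4 as well without passing the test. Its 6 clone libraries read 15.0 to 22.9 TPM and the E14Tg2a libraries 29.9 to 42.6 TPM, a difference of -0.91 (SE 0.57, adjusted p = 0.47) with a 95% interval from -2.07 to 0.26. *Fgf5* and *Sall2* were the members whose clone libraries all lay below E14Tg2a on that day, as 5.95% of all genes did. On the same day the 10 extra-embryonic endoderm markers summed to 86.9 to 687 TPM in E14Tg2a and 5.67 to 179 TPM in the clones, with 6 of 10 called lower and none at 0 in every library of a group, and their part in the member values was not tested.

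On day 6 the clones were above E14Tg2a for 7 of 8 members, by a median of 0.54 against -0.03 over all genes. *Foxd3* was at 11.3 and 22.6 TPM in the ΔK9.1 libraries and 23.0 and 20.0 TPM in ΔK9.2, against 3.65 and 9.21 TPM in E14Tg2a. Its difference was 1.51 (SE 0.43, adjusted p = 0.044), where 1.1% of all genes were called higher, and the call was lost without any of 14 of the 33 libraries in turn, with a difference of 0.94 without E14Tg2a replicate 2. With a pseudocount of 0.1 the call was lost as well. *Pou3f1* was at 25.8 and 60.2 TPM and at 54.8 and 41.2 TPM in the clones, against 12.02 and 20.8 TPM, and did not pass the test (1.40, 95% interval from 0.36 to 2.43, adjusted p = 0.12). The libraries did not overlap for *Pou3f1*, *Zic5*, *Grhl2* and *Foxd3*, with the clones higher, as for 12.8% of all genes. *Otx2* differed by 0.15, with a 95% interval from -0.79 to 1.10.

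Markers of other states also separated the lines on day 6, where 2.72% of all genes were called lower in the clones, and their part in the member values was not tested. The 3 core pluripotency genes summed to 1537 to 1971 TPM in the clones and 1029 to 1174 TPM in E14Tg2a, with none called by limma and 1 at an unadjusted p under 0.05 (2781 of all 16336 genes). The 10 extra-embryonic endoderm markers summed to 13.5 to 60.3 TPM against 146 to 256 TPM, with 3 called lower. The 9 epithelial markers summed to 456 to 598 TPM against 833 to 955 TPM and the 9 primitive streak markers to 108 to 736 TPM against 743 to 803 TPM, with 1 of each called lower. The 7 neural crest markers, 6 of them in the table, summed to 20.2 to 85.6 TPM against 91.7 to 154 TPM, with 1 called lower, while *Foxd3* was higher in the clones.

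On day 8 most epiblast genes were higher in the clones. Of the 8 members, 5 were called higher in the mean of both clones, where 6.84% of all genes were called higher, and the median difference was 1.13 against -0.0035 over all genes. *Fgf5* was at 6.57, 7.13 and 50.8 TPM in the ΔK9.1 libraries and at 19.1, 1.58 and 19.9 TPM in ΔK9.2, against 5.81, 0.39 and 1.52 TPM in E14Tg2a. The difference was 2.10 (SE 0.57, adjusted p = 0.010), and 1 clone library, ΔK9.2 replicate 2, lay within the range of E14Tg2a.

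*Zic2* was at 22.1, 13.9 and 44.5 TPM in the ΔK9.1 libraries and 48.2, 11.7 and 41.8 TPM in ΔK9.2, against 12.7, 5.18 and 7.83 TPM (1.59, SE 0.35, adjusted p = 0.0022). Its call held without any of the 33 libraries in turn, with adjusted p up to 0.043. *Pou3f1* was at 7.46, 4.74 and 33.02 TPM and at 14.6, 8.37 and 22.2 TPM, against 5.49, 1.78 and 3.59 TPM (1.61, SE 0.41, adjusted p = 0.0068). *Zic5* was at 10.3, 4.68 and 25.6 TPM and at 25.7, 6.31 and 16.4 TPM, against 4.48, 3.66 and 5.99 TPM (1.25, SE 0.32, adjusted p = 0.0078). For each of these 3 genes the lowest clone library lay within the E14Tg2a range.

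*Foxd3* remained low everywhere on day 8, at 1.13, 1.92 and 3.67 TPM and at 5.43, 0.44 and 1.14 TPM, against 0.87, 0.20 and 0.33 TPM (1.001, SE 0.35, adjusted p = 0.043). E14Tg2a lay under 1 TPM, and with a pseudocount of 0.1 the difference was 1.85 and also called. *Otx2* (0.77, adjusted p = 0.16), *Grhl2* (0.66, adjusted p = 0.11) and *Sall2* (-0.51, adjusted p = 0.23) were not called. No member had libraries that did not overlap on that day, which 13.4% of all genes had in either direction. In ΔK9.1 alone *Fgf5* (2.36), *Zic2* (1.46) and *Pou3f1* (1.44) were called, where 4.51% of all genes were called higher, and in ΔK9.2 alone *Pou3f1* (1.79), *Zic2* (1.72) and *Zic5* (1.42) were, where 5.09% were.

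The day 8 calls rest on few libraries. ΔK9.1 replicate 3 had the highest *Fgf5*, *Pou3f1*, *Otx2* and *Grhl2* of the 9 libraries and 177 TPM of *Nanog*, against 49.3 to 126 TPM in the other clone libraries. Without it *Fgf5* remained called in the mean of both clones, and *Foxd3*, whose call was lost without any of 8 libraries in turn, and all 3 calls of ΔK9.1 were lost, *Fgf5* moving from 2.36 to 1.45 and *Pou3f1* from 1.44 to 0.68. The *Pou3f1* call of ΔK9.1 (adjusted p = 0.048) was lost without any of 25 of the 33 libraries in turn and under median-ratio rescaling. ΔK9.2 replicate 1 had the highest *Zic2*, *Zic5* and *Foxd3* of the 9 libraries, with 789 TPM of *Pou5f1* against 198 to 501 TPM in the other clone libraries, and 741 TPM of streak markers against 165 to 327 TPM. Without it the calls of *Zic2* (1.36) and *Zic5* (1.0001) in ΔK9.2 and of *Foxd3* in the mean of both clones were lost, and that of *Pou3f1* in ΔK9.2 was lost without replicate 3 (1.47). Without E14Tg2a replicate 2 the calls of *Fgf5*, *Pou3f1*, *Zic5* and *Foxd3* were lost, and so were those of either clone alone. With the libraries of day 8 fitted alone none of the 5 was called (adjusted p from 0.13 to 0.24), and likewise for *Sall2* on day 4 (0.15) and *Foxd3* on day 6 (0.17) with those days alone.

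Other RNAs moved with the epiblast genes on day 8, and their part in the difference was not tested. All 3 core pluripotency genes were called higher in the clones, and *Nanog*, *Pou5f1* and *Sox2* together summed to 286 to 949.5 TPM in the clones and 132 to 273 TPM in E14Tg2a. Of 10 naïve genes 5 were called higher and 1 lower, with sums of 75.7 to 145 TPM against 55.2 to 77.6 TPM. The 9 primitive streak markers summed to 165 to 741 TPM against 34.0 to 216 TPM, with 4 called higher, and the 10 extra-embryonic endoderm markers to 46.4 to 184 TPM against 389 to 505 TPM, with 6 called lower (11.8% of all genes). The 9 epithelial markers summed to 838.5 to 1202 TPM against 1574 to 1791 TPM, with none called by limma and 2 at an unadjusted p under 0.05 (5227 of all 16336 genes). Sums of 2 other lists overlapped between the lines. The 9 neural markers in the table summed to 44.4 to 77.7 TPM in the clones and 43.8 to 66.6 TPM in E14Tg2a. The 6 neural crest markers in the table summed to 85.5 to 290.5 TPM and 234.2 to 311.9 TPM. No marker of these lists was at 0 in every library of a group on that day.

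**Figure D3:**
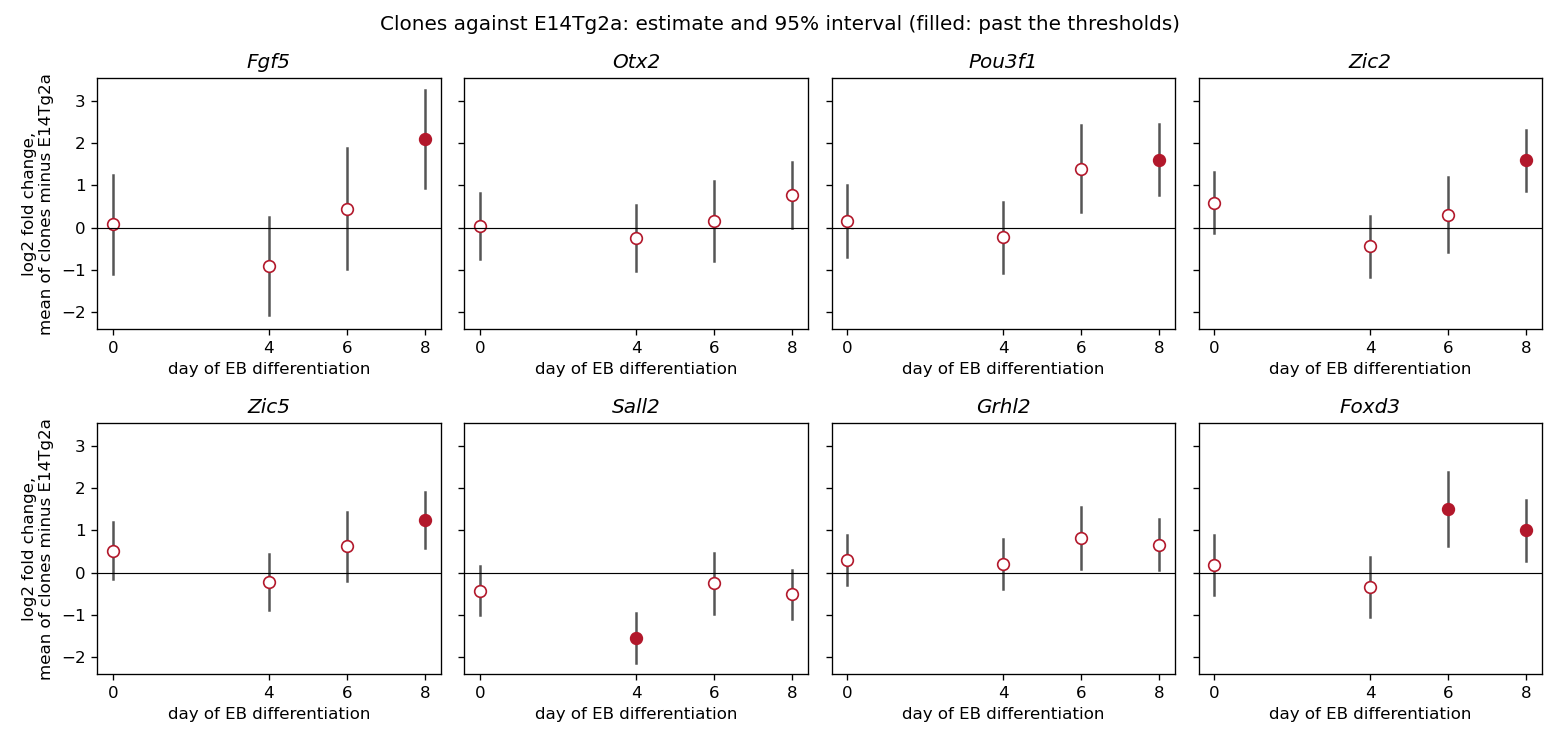
Log2 fold change of the mean of both clones over E14Tg2a (vertical axis, TPM + 1) with its 95% interval against the day, 1 panel per member, with filled points where the thresholds were passed. Filled points are *Sall2* on day 4 (-1.54), *Foxd3* on day 6 (1.51) and *Fgf5*, *Pou3f1*, *Zic2*, *Zic5* and *Foxd3* on day 8 (1.001 to 2.10).

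No member was called between the clones. Between ΔK9.1 and ΔK9.2, limma called none of the 8 on day 0 (1.81% of all genes), day 4 (0%), day 6 (0.00612%) or day 8 (0%), and none had an unadjusted p under 0.05. In the order of the days, 2464, 833, 693 and 990 of all 16336 genes did. The intervals are wide, and the widest on day 8 was that of *Fgf5*, from -0.83 to 1.86, so differences between the clones of over 2-fold are within them.

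*Sall2* lies in a stretch of chromosome 14 where most genes were lower in the clones. Within 5 Mb on each side, 91 genes reached 5 TPM in a group, and 86, 90, 87 and 87 of them had a difference below 0 on days 0, 4, 6 and 8. Their medians were -0.48, -0.58, -0.77 and -0.68, against 0.06, -0.08, -0.03 and -0.01 over all genes of that level. *Sall2* itself was at -0.42, -1.54, -0.25 and -0.51, below all 91 neighbours on day 4 and above 61.5%, 91.2% and 68.1% of them on days 0, 6 and 8. Whether *Sall2* differed from its neighbours was not tested.

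*Otx2* has 53 such neighbours, with medians of -0.39, -0.37, -0.55 and -0.46 on the 4 days, and *Otx2* was above 98.1% of them on days 6 and 8. *Otx2* is itself among the neighbours of *Sall2*, so both windows overlap and share genes. *Zic2* and *Zic5* have 19 each, the other of the pair included, with medians from -0.06 to -0.39, and on day 8 *Zic2* was above all of them and *Zic5* above 94.7%. The neighbours of *Fgf5*, *Pou3f1*, *Grhl2* and *Foxd3*, on other chromosomes, had medians between -0.14 and 0.12 on every day.

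**Figure D4:**
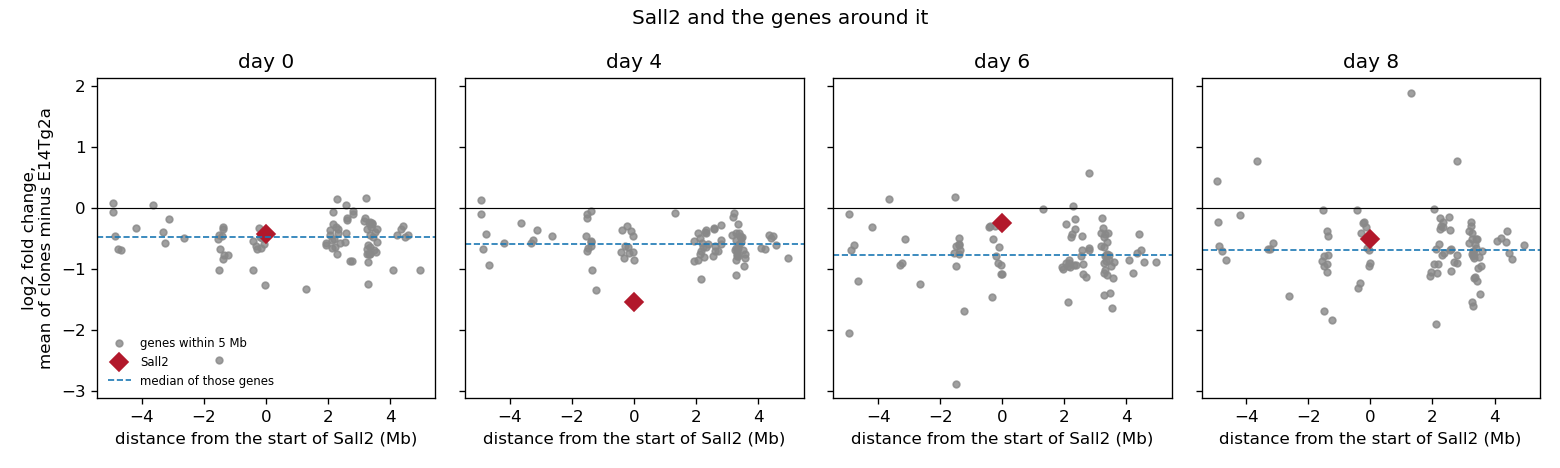
Log2 fold change of the mean of both clones over E14Tg2a (vertical axis) for *Sall2* (diamond) and the 91 genes within 5 Mb (points) against their distance from *Sall2* in Mb, 1 panel per day, with the median of the 91 genes dashed. Most points lie below 0 on every day, and *Sall2* is below all of them on day 4.

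Pairs of members differed in how alike their courses were. Over the 12 group means of log2(TPM + 1), Pearson's r was 0.953 between *Fgf5* and *Zic2*, 0.935 between *Pou3f1* and *Zic2*, 0.914 between *Fgf5* and *Pou3f1* and 0.894 between *Otx2* and both *Pou3f1* and *Grhl2*, and the lowest was -0.266 between *Sall2* and *Foxd3*. These are descriptions over groups that share lines and days. Of the 12080 genes at 5 TPM or more in a group, those most like *Fgf5* were *Cnksr3* (0.976), *Pim2* (0.974) and *Hmga1* (0.970), and those most like *Pou3f1* were *Foxi3* (0.985), *Gpr162* (0.978) and *Dnmt3b* (0.974). *Dll1* (0.980), *Pim2* (0.975) and *Cnksr3* (0.973) were closest to *Zic2*, and *Lrig1* (0.967), *Socs2* (0.957) and *Tmem238* (0.948) to *Zic5*. *Plcg2* (0.970) and *Myb* (0.958) were closest to *Otx2*, *Lpar2* (0.972), *Stag2* (0.971) and *Nt5dc2* (0.966) to *Sall2*, and *Rps12* (0.965), *Skil* (0.964) and *Gm44510* (0.960) to *Grhl2*.

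The gene most like *Foxd3*, with an r of 0.990, was *Gm12688*, a noncoding gene on the opposite strand whose annotated start faces that of *Foxd3* across 1315 bases. It was at 8.13 ± 3.15 TPM on day 0 and 0.55 ± 0.45 TPM on day 8 in E14Tg2a (SD, n = 3), and on day 6 at 4.22 ± 2.24 TPM in E14Tg2a, 7.35 ± 2.99 TPM in the ΔK9.1 libraries and 11.3 ± 1.88 TPM in ΔK9.2 (SD, n = 2). *Prdx1* (0.981) and *Slc7a3* (0.977) came next.

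The other genes of the formative programme were split in their course. Of 13 listed here, among them the DNA methyltransferases *Dnmt3a*, *Dnmt3b* and *Dnmt3l* and the factors *Etv4*, *Etv5*, *Tcf15* and *Utf1*, 6 rose and 1 fell between days 0 and 4 in E14Tg2a, where 3.67% and 4.07% of all genes did, with a median of 1.29 against -0.07 over all genes. The largest were *Dnmt3b* (3.05), *Cldn6* (2.83), a tight junction claudin, *Sox3* (2.43) and *Lef1* (2.31), and the lower was *Etv4* (-2.19). In the clones 0 of 13 were called against E14Tg2a on days 0, 4 and 6 by limma (3.89%, 2.8% and 3.82% of all genes), and 1, 1 and 4 of them had an unadjusted p under 0.05. On those days 2871, 2524 and 2781 of all 16336 genes did. On day 8, 6 of 13 were called higher and none lower, where 6.84% and 11.8% of all genes were, with a median of 0.82, led by the ligand *Wnt8a* (2.09), *Utf1* (1.29), *Etv4* (1.09) and *Tcf15* (1.02). Their peak days were day 0 for 4, day 4 for 5, day 6 for 3 and day 8 for 1 in E14Tg2a. In the same order they were 4, 3, 4 and 2 in ΔK9.1 and 4, 3, 3 and 3 in ΔK9.2, and 9 of the 13 had the same peak day in every line. *Dnmt3b* and *Sox3* were highest on day 4 in E14Tg2a and on day 6 in both clones, and *Fgf15* and *Lef1* were the others whose peak day differed.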

How the data were processed

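The 33 libraries are those of E14Tg2a, ΔK9.1 and ΔK9.2. The authors prepared stranded poly-A libraries, used STAR for alignment to mm10 and RSEM for quantification, and the values deposited are TPM per library. Per the paper's methods, outliers found by PCA were left out before TPM were computed, and the methods do not say what the outliers were. Versions and the gene annotation are not given in the sources used here. The table also holds the log2 fold changes and FDR of the authors' DESeq2 comparisons, which were not used. TPM do not keep depth, so precision was taken from the replicates, whose median SD per group was 0.105 to 0.248 on the log2 scale.

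Log2(TPM + 1) was fitted in R 4.3.3 by limma 3.58.1, with a trended empirical Bayes prior, over all 12 groups at once, for the 16336 genes with a group mean of at least 1 TPM, all 8 members among them, with Benjamini-Hochberg adjustment per contrast. The thresholds were an adjusted p under 0.05 together with a log2 fold change beyond 1 (between days) or 0.3 (between lines) in either direction. The scripts were tested on simulated data. Genes were placed by symbol with GENCODE M21 (16078 genes, 98.4%, each with a single entry), and neighbours are genes within 5 Mb that reach 5 TPM. All 8 members are named, together with the 3 genes most like each by Pearson's r and at most 4 called genes of another list with the largest changes, and any other gene was named after its values were seen. Some genes that these rules or lists would hold are not reported here. Members and lists were chosen with earlier results of these data known. The alternatives tried were another pseudocount, minimum, scaling, fold threshold and set of libraries in the fit, the replicate number as a block, and each library left out in turn. Figures were drawn with matplotlib 3.10.9.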

Additional observations from a re-analysis of the deposited data

Results flagged for a closer look

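No member had a change that differed between the clones and E14Tg2a by the test of the difference. Among the 13 other formative genes, 3 did over the 8 days from the undifferentiated cells, with a smaller fall in the clones. The difference of the change from day 0 to day 8 between the mean of both clones and E14Tg2a was 1.47 for *Etv4*, 1.45 for *Tcf15* and 0.96 for *Etv5* on the log2 scale, where 6.29% of all genes were called in either direction. All 3 fell over that interval in E14Tg2a, by -2.40, -4.43 and -2.37. Whether these 3 differences depend on single libraries was not tested.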

How the results depend on the processing

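Member calls over the 8 genes and their contrasts numbered 16, 13 and 18 between days in E14Tg2a, ΔK9.1 and ΔK9.2, 7 for the clones averaged against E14Tg2a, 4 for each clone and 0 for the differences of change. A minimum of 5 TPM or none, a pseudocount of 0.1, median-ratio rescaling and the other fold threshold left each within 1.5 times these counts. With only the compared groups in the fit they were 14, 8, 12, 0, 2, 0 and 0, of which 12, 8, 10, 0, 0, 0 and 0 were among those calls (the 2 for ΔK9.1 were *Zic2* and *Zic5* on day 0), and all genes called for the mean of both clones were 69 in place of 457 on day 4, 5 in place of 624 on day 6 and 414 in place of 3050 on day 8, as fewer libraries estimate the spread. With each library left out in turn they ran from 14 to 18, 8 to 16, 12 to 20, 3 to 8, 1 to 5, 1 to 7 and 0 to 2, a group left with 1 library being assumed to vary like the others. Members highest on day 4 ran from 6 to 7 in E14Tg2a, from 1 to 4 in ΔK9.1 and stayed at 2 in ΔK9.2. Leaving out ΔK9.1 replicate 3 on days 6 and 8 together, chosen after seeing the data, left 5 calls for the mean of both clones and 1 for ΔK9.1, and 4 members highest on day 4 in that clone. No called value changed sign, and the cause of these shifts was not tested. Rescaling moved the split of all calls on day 4 between the clones and E14Tg2a from 72 higher and 385 lower to 150 higher and 276 lower, on day 0 from 438 and 197 to 288 and 294, and from day 0 to day 4 in ΔK9.1 from 224 and 656 to 366 and 370. A pseudocount of 0.1 raised the calls of all genes from day 0 to day 4 in E14Tg2a from 1265 to 2000.

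Replicate numbers are shared between lines, and no source used here says what they stand for, though the lines were differentiated side by side in independent assays. Deviations from the group means correlated with a median of 0.22 over 33 same-numbered pairs of a day (31 above 0.1, lowest -0.013) and -0.13 over 60 others, and all 33 libraries correlated best with their own number, a hint from the data. Under a block for the replicate number the member counts were 16, 14, 19, 8, 5, 6 and 0, with 15, 13, 18, 7, 4, 4 and 0 shared, *Grhl2* on day 8 was called (0.66, adjusted p = 0.033), as were *Otx2* from day 4 to day 6 in E14Tg2a (-1.16, adjusted p = 0.045), *Grhl2* after day 6 in both clones (-1.20 and -1.10), *Zic5* on day 8 in ΔK9.1 (1.08) and *Foxd3* on day 6 and *Fgf5* on day 8 in ΔK9.2 (1.71 and 1.84), and *Foxd3* from day 4 to day 6 in E14Tg2a was not (-1.12, adjusted p = 0.055), and all calls for the mean of both clones rose from 635 to 1000 on day 0, from 457 to 770 on day 4 and from 624 to 1005 on day 6.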
